A study of Homo sapiens with 18 samples.

Results

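Abemaciclib and palbociclib differed more in ZR-75-1 cells than in CAMA-1 cells. The genes in which the lines parted included transcripts of mitosis, tubulins and deoxynucleotide synthesis below 0. Above 0 they included immediate early, lipid synthesis and luminal keratin transcripts. The quantity examined is an interaction for each gene. It is the log2 fold change between abemaciclib and palbociclib in ZR-75-1 minus the same log2 fold change in CAMA-1. A value below 0 means that abemaciclib, relative to palbociclib, gave a lower level in ZR-75-1 than in CAMA-1, and a value above 0 means the reverse. It rests on 12 of the 18 libraries of the series, 3 for each inhibitor in each line, and was fitted for all 11987 genes that passed a filter on low counts.

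CAMA-1 and ZR-75-1 are established oestrogen receptor-positive breast cancer lines, and the labels give both as wild type. Cells received abemaciclib at 500 nM, palbociclib at 500 nM or an equal volume of the solvent DMSO, in each case for 5 days. The study describes the 3 libraries of a group as separate cultures in an experiment that was performed a single time. DMSO libraries entered the fit but not the contrast, and are given as the reference level. RNA was read by 3′-end messenger RNA sequencing, so a transcript contributes roughly 1 fragment per molecule whatever its length. Both drugs were given at a single dose and time, so the comparison holds at that matched dose only.

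CDK4 and CDK6, with a D-type cyclin, phosphorylate the retinoblastoma protein Rb. Rb without this phosphorylation holds E2F factors in check and with them the genes of the G1/S transition. Genes that act later, in G2 and mitosis, are driven by B-Myb and FOXM1 and are repressed in resting cells by the DREAM complex, which binds a short promoter element called the cell cycle genes homology region. Abemaciclib and palbociclib both inhibit CDK4 and CDK6, and in luminal breast cancer cells this arrests the cycle in G1.

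Library totals ran from 2308442 to 4146549 counts, and 3 counts stood for 0.723 to 1.30 CPM (counts scaled to a common library total). Replicates had a Pearson's r of 0.975 to 0.982 across genes, and their counts differed by more than sampling noise. All 7 luminal markers were detected, with summed levels of 4648 to 6679 CPM. Of the markers of other cell types, KRT5, COL1A2, DCN, PDGFRB, CD3E and CDH5 had no count in any library, while 4 of 5 basal, 3 of 6 fibroblast, 5 of 6 leukocyte and 2 of 3 endothelial markers had a count somewhere. The summed level of the tested markers was 14.4 to 33.9 CPM for fibroblasts and 0.230 to 11.2 CPM for leukocytes. For basal markers the CAMA-1 means were 5.97 CPM with DMSO, 41.7 with abemaciclib and 33.6 with palbociclib. The ZR-75-1 means were 9.99, 2.21 and 4.49 CPM in the same order, and the part of these genes in the results was not tested. In CAMA-1 the mitochondrial genome gave 24.8% ± 1.37 of counts under abemaciclib and 23.6% ± 1.15 under palbociclib, and in ZR-75-1 it gave 19.6% ± 1.01 and 19.0% ± 0.700 (SD, n = 3; exact two-sided permutation test, p = 0.200 and p = 0.600, where 0.1 is the smallest value that 3 against 3 allow). Genes are annotated on the opposite strand over CENPF, CCNB2, FOXM1, RRM1, RRM2, TYMS, DUT, MCM2, CDKN2A, CCND1, CDK4, RB1, CDKN1A, TUBA1B, IFI6, BCAS1, S100A6, ESR1, GREB1, CTSD, KRT8, KRT18, NEURL1B and DSCAM-AS1, and since strand-aware counting was not stated, reads of the partner cannot be told apart from theirs.

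The first question was how many genes took part. The interaction passed an adjusted p of 0.05 (edgeR quasi-likelihood test) for 336 genes, 2.80% of those tested. Of these, 212 (1.77% of tested genes) lay below 0 and 124 (1.03%) above 0, and 148 (1.23%) differed at least 2-fold. Within ZR-75-1, abemaciclib and palbociclib differed in 1410 genes (11.8%), of which 856 (7.14%) were lower and 554 (4.62%) higher with abemaciclib. Within CAMA-1 the same test called 261 genes (2.18%), 175 (1.46%) lower and 86 (0.717%) higher. This count was 147 without abemaciclib replicate 3 of CAMA-1, 169 without palbociclib replicate 1 and 173 without palbociclib replicate 2, and it was 64 against a 1.2-fold minimum, which left 545 genes in ZR-75-1. Libraries of the 2 inhibitors did not overlap for 26.5% of genes in ZR-75-1 and 17.1% in CAMA-1. The median size of the inhibitor difference was 0.22 on the log2 scale in ZR-75-1 and 0.16 in CAMA-1, against median standard errors of 0.208 and 0.200. For the typical gene the inhibitors were therefore within about 1 standard error of each other in both lines.

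The lines shared part of their inhibitor difference. The 2 differences use separate libraries, and across the 11987 genes their Pearson's r was 0.16 and Spearman's rho 0.20, with genes not being independent replicates. Of the 1410 genes called in ZR-75-1 and the 261 called in CAMA-1, 144 were called in both, which is 10.2% of the former and 55.2% of the latter. Of these 144, 107 were lower with abemaciclib in both lines, 23 were higher in both and 14 had opposite signs.

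Among the 336 genes of the interaction, 232 were called between inhibitors in ZR-75-1 and not in CAMA-1, 33 in CAMA-1 and not in ZR-75-1, 33 in both with the same sign, 14 in both with opposite signs, and 24 in neither line taken alone. The 33 genes with the same sign were all lower with abemaciclib, and further so in ZR-75-1. The difference was the larger in ZR-75-1 for 278 of the 336 genes. Set against DMSO, the 212 genes below 0 had a median log2 change of −1.34 with abemaciclib and −0.44 with palbociclib in ZR-75-1, and of −0.58 and −0.68 in CAMA-1. Abemaciclib in ZR-75-1 was the group furthest from its DMSO level for 134 of them. For the 124 genes above 0, the medians were 0.49 and −0.01 in ZR-75-1 and 0.48 and 0.58 in CAMA-1. The median of these genes was near the DMSO level with palbociclib in ZR-75-1 and above it in the other 3 drug groups. Both sets were chosen by the interaction in these same libraries. The order of their medians is therefore partly a result of the choice.

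**Figure D1:**
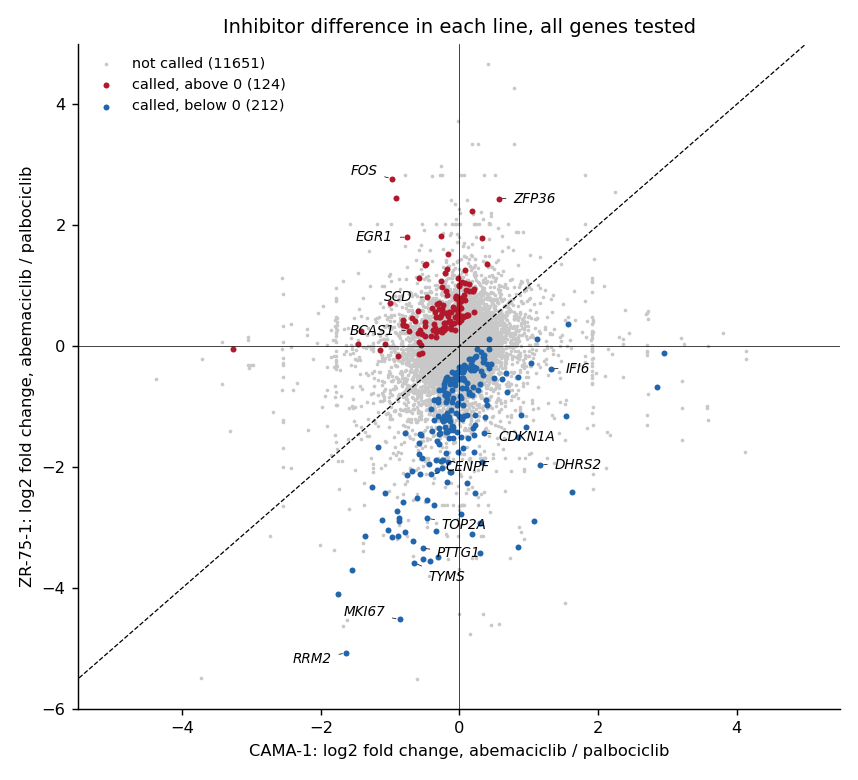
Log2 fold change between abemaciclib and palbociclib in CAMA-1 (horizontal) and in ZR-75-1 (vertical) for the 11987 genes tested, with the 124 genes called above 0 in red, the 212 called below 0 in blue and equal differences on the dashed line. Most called genes spread along the vertical axis, and FOS, EGR1 and SCD lie in the upper left, DHRS2 and IFI6 in the lower right.

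Mitotic genes made up the largest group. Of the 53 tested genes on a G2/M list, 30 lay below 0 in the interaction and none above, beside 1.77% and 1.03% of all genes. The median interaction of the list was −1.12, with a median inhibitor difference of −1.24 in ZR-75-1 and −0.27 in CAMA-1. Within ZR-75-1, 45 of the 53 were lower with abemaciclib, and within CAMA-1, 9 were, beside 7.14% and 1.46% of all genes. Leaving out any 1 library gave 25 to 30 members below 0. The summed level of the list was 2357 ± 16.8 CPM with abemaciclib and 4761 ± 69.0 with palbociclib in ZR-75-1, against 2903 ± 34.9 and 3321 ± 61.8 in CAMA-1 (SD, n = 3). With DMSO it was 8647 ± 73.0 in ZR-75-1 and 8025 ± 179 in CAMA-1. In bulk RNA, fewer cycling cells and less of each transcript per cycling cell cannot be told apart.

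MKI67, which encodes the proliferation marker Ki-67 (chr10:128096659-128126423, GRCh38), showed the pattern in every library. In ZR-75-1 it stood at 6.97, 5.56 and 13.4 CPM with abemaciclib and at 184, 209 and 192 CPM with palbociclib. In CAMA-1 the libraries held 52.9, 38.6 and 38.4 CPM with abemaciclib and 82.5, 78.5 and 78.9 CPM with palbociclib. Neither pair of groups overlapped, and the abemaciclib libraries of ZR-75-1 were the lowest of all. The interaction was −3.66 ± 0.20 on the log2 scale (SE; adjusted p = 2.8e-22), made of a difference of −4.52 in ZR-75-1 and −0.86 in CAMA-1. Relative to DMSO, MKI67 was at 1.70% with abemaciclib and 39.2% with palbociclib in ZR-75-1, and at 10.6% and 19.3% in CAMA-1.

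TOP2A, the topoisomerase that untangles sister chromatids (chr17:40388525-40417896), had the smallest p of the whole interaction. It measured 85.6, 82.3 and 90.4 CPM with abemaciclib against 634, 628 and 595 CPM with palbociclib in ZR-75-1. In CAMA-1 the values were 301, 330 and 345 CPM against 444, 459 and 441 CPM. The interaction was −2.38 ± 0.10 (adjusted p = 2.8e-28). Securin, PTTG1, which holds separase inactive until anaphase, read 6.30, 8.34 and 10.7 CPM against 82.5, 95.3 and 76.9 CPM in ZR-75-1. In CAMA-1 it read 48.2, 53.2 and 39.0 CPM against 71.7, 68.9 and 59.9 CPM, and the interaction was −2.81 ± 0.21 (adjusted p = 7.4e-17). For both genes the drug groups were apart in each line, and the gap was wider in ZR-75-1.

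The kinetochore protein CENPF gave 114, 124 and 113 CPM with abemaciclib against 516, 521 and 490 CPM with palbociclib in ZR-75-1, and 121, 116 and 128 CPM against 161, 176 and 148 CPM in CAMA-1. The groups were apart in each line (interaction −1.71 ± 0.11, adjusted p = 3.2e-19). Relative to DMSO, CENPF was at 9.71% with abemaciclib and 42.2% with palbociclib in ZR-75-1, and at 28.1% and 37.2% in CAMA-1. CCNB2, which encodes cyclin B2, separated the drugs in ZR-75-1 only: 10.3, 11.1 and 11.8 CPM against 33.9, 36.3 and 36.8 CPM. In CAMA-1 its 6 drug libraries overlapped between 23.1 and 28.8 CPM, with a difference of 0.05 ± 0.15 (adjusted p = 0.95). The interaction was −1.74 ± 0.24 (adjusted p = 1.7e-07).

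The promoters of these genes are shown because DREAM and B-Myb act through them. Sequences are from RefSeq (GRCh38.p14) and cover the 100 bases before each start site, 5′ to 3′ on the gene's strand. Capitals mark the cell cycle genes homology region, searched as TTTGAA on both strands, and the CArG box of serum response factor, searched by its usual consensus. The windows are chr10:128126424-128126523 (minus strand), chr15:59105046-59105145 (plus strand), chr17:40417897-40417996 (minus strand), chr1:214603095-214603194 (plus strand) and, for an immediate early gene described further on, chr5:138465379-138465478 (plus strand).

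MKI67: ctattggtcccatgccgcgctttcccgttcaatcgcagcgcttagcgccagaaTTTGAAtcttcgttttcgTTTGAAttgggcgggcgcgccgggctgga
CCNB2: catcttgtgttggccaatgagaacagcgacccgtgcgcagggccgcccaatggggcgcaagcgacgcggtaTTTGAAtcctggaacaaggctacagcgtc
TOP2A: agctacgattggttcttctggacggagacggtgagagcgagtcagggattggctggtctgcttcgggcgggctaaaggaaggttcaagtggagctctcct
CENPF: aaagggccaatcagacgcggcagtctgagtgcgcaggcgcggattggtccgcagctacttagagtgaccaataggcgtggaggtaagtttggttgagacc
EGR1: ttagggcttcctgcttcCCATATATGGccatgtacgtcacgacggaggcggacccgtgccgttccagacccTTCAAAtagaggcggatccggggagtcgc

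MKI67 has 2 matches to TTTGAA, beginning 47 and 29 bases before the start site, and CCNB2 has a match at 29 bases. TOP2A and CENPF have no match to TTTGAA in these windows, and other forms of the element were not searched. In the 250 bases before the start, TTTGAA occurred in 24 of the 44 G2/M genes with an entry in the promoter table, or 54.5%, against 13.6% of all 27305 RefSeq promoters of that length. The share was 56.0% (14 of 25) for G2/M genes called in the interaction and 52.6% (10 of 19) for those not called. The motif was about as frequent on either side of the call. EGR1 has a CArG box that begins 83 bases before its start, and a reverse-strand TTTGAA at 29 bases.

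**Figure D2:**
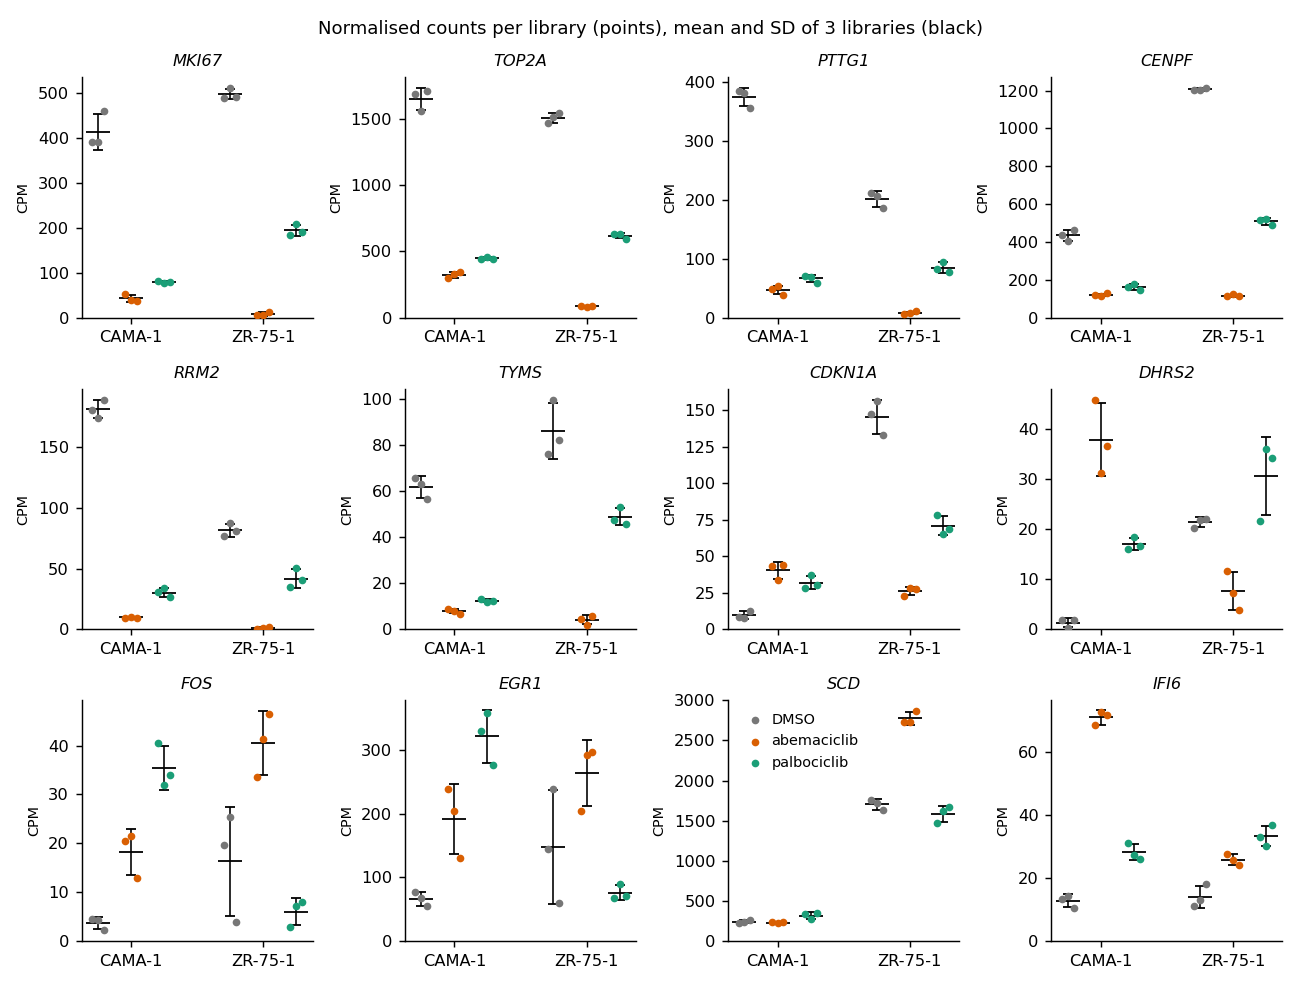
Normalised counts (CPM) of 12 genes in each of the 18 libraries, with points for libraries coloured by treatment and black bars for the mean and SD of 3 libraries. MKI67, TOP2A, PTTG1, CENPF, RRM2 and TYMS have their lowest mean with abemaciclib in ZR-75-1, whereas DHRS2, FOS, EGR1 and SCD order the 2 inhibitors oppositely in the 2 lines.

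Part of the kinases and cyclins that drive the cycle past G1 gave the same picture. On a list of cyclins E, A and B with CDK1, CDK2 and their regulators, 5 of 10 tested genes lay below 0. None lay above 0, beside 1.77% of all genes below and 1.03% above. The called genes were CCNA2, CCNB1, CCNB2, CDK1 and CDC25B, and CCNB2 and CDK1 are also on the G2/M list. No E-type cyclin was called, nor was CDK2. CCNE2, however, held 3, 0 and 1 counts with abemaciclib in ZR-75-1, so its interaction is poorly measured. Palbociclib was there at least 4.99-fold higher against a floor of 3 counts. The median of the list was −1.30. Of the 10 genes, 9 were lower with abemaciclib in ZR-75-1 and 2 in CAMA-1, beside 7.14% and 1.46% of all genes. Leaving out 1 library gave 3 to 6 genes. CDK1, the mitotic kinase, measured 13.6, 18.4 and 16.2 CPM with abemaciclib against 51.3, 58.7 and 63.0 CPM with palbociclib in ZR-75-1. In CAMA-1 it measured 13.0, 13.7 and 15.6 CPM against 24.3, 21.9 and 14.3 CPM, so that the groups overlapped there. Its interaction was −1.30 ± 0.25 (adjusted p = 0.0003). CDC25B, a phosphatase that activates cyclin-CDK complexes, had an interaction of −1.30 ± 0.20 (adjusted p = 3.2e-06), with a difference of −1.39 in ZR-75-1 and −0.09 in CAMA-1.

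FOXM1 and MYBL2, the factors that switch on these genes, were both below 0. They were the only 2 genes called of 6 tested on their list, beside 2.80% of all genes. The median of that list was −0.20 in the interaction and −0.15 for the inhibitor difference in ZR-75-1. FOXM1 had 27.9, 22.6 and 25.7 CPM with abemaciclib against 75.2, 81.0 and 77.5 CPM with palbociclib in ZR-75-1. In CAMA-1 it had 9.00, 12.9 and 8.12 CPM against 10.3, 14.5 and 10.9 CPM, which overlapped. The interaction was −1.32 ± 0.25 for FOXM1 (adjusted p = 0.00036) and −1.01 ± 0.15 for MYBL2, which encodes B-Myb (adjusted p = 1.6e-06).

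Genes of the G1/S transition parted the lines far less. Of 43 tested genes on an S-phase list, 5 lay below 0 (RRM2, TYMS, WDR76, CLSPN and RRM1), beside 1.77% of all genes. None lay above 0, and the median interaction of the list was −0.29. Within each line, however, abemaciclib gave the lower level for many members, 26 in ZR-75-1 and 14 in CAMA-1, beside 7.14% and 1.46% of all genes. The medians of the list were −0.84 and −0.57. Its summed level was 942 ± 18.8 CPM with abemaciclib and 1699 ± 20.2 with palbociclib in ZR-75-1, and 929 ± 19.3 and 1306 ± 13.9 in CAMA-1. E2F1 illustrates the genes that did not pass: it was lower with abemaciclib by 0.84 in ZR-75-1 and by 0.69 in CAMA-1, with an interaction of −0.14 (95% interval −0.58 to 0.29, adjusted p = 0.85). The interval leaves room for an effect of either sign. MCM2, a subunit of the replicative helicase, had an interaction of 0.26 (−0.09 to 0.60, adjusted p = 0.56), and TK1, thymidine kinase, one of −0.58 (−1.30 to 0.13, adjusted p = 0.51).

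Replication licensing and fork genes had 2 of 46 below 0 (CLSPN and LIG1), beside 1.77% of all genes, and a median of −0.25. The call of LIG1 was fragile, as it was lost in 28 of 30 alternative analyses, including 17 of the 18 that each left out a library. Homologous recombination and Fanconi genes had none of 24 in the interaction, by the quasi-likelihood test, and a median of −0.06. In ZR-75-1, however, 11 were lower and 1 higher with abemaciclib, beside 7.14% and 4.62% of all genes. In CAMA-1, 3 were lower, beside 1.46% of all genes.

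Deoxynucleotide synthesis shares RRM2, TYMS and RRM1 with the S-phase list. Here 4 of 13 genes lay below 0 (RRM2, TYMS, RRM1 and DUT), beside 1.77% of all genes. No member lay above 0, and the median was −0.52. RRM2, the regulated subunit of ribonucleotide reductase (chr2:10120698-10211725), fell to the edge of detection with abemaciclib in ZR-75-1, at 0.664, 1.39 and 1.58 CPM against 34.5, 50.2 and 40.4 CPM with palbociclib. In CAMA-1 it was at 9.53, 10.3 and 9.68 CPM against 30.6, 33.9 and 26.5 CPM. The groups were apart in both lines, and the interaction was −3.44 ± 0.39 (adjusted p = 8.9e-10). TYMS, thymidylate synthase, read 4.31, 2.08 and 5.92 CPM against 47.7, 53.2 and 45.9 CPM in ZR-75-1, and 8.73, 8.15 and 6.87 CPM against 13.2, 11.9 and 12.2 CPM in CAMA-1. Its interaction was −2.93 ± 0.34 (adjusted p = 2.2e-09). RRM1, the large reductase subunit, had a smaller interaction of −0.60 ± 0.11 (adjusted p = 0.00012), and DUT, which removes dUTP, one of −0.56 ± 0.12 (adjusted p = 0.0019).

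**Figure D3:**
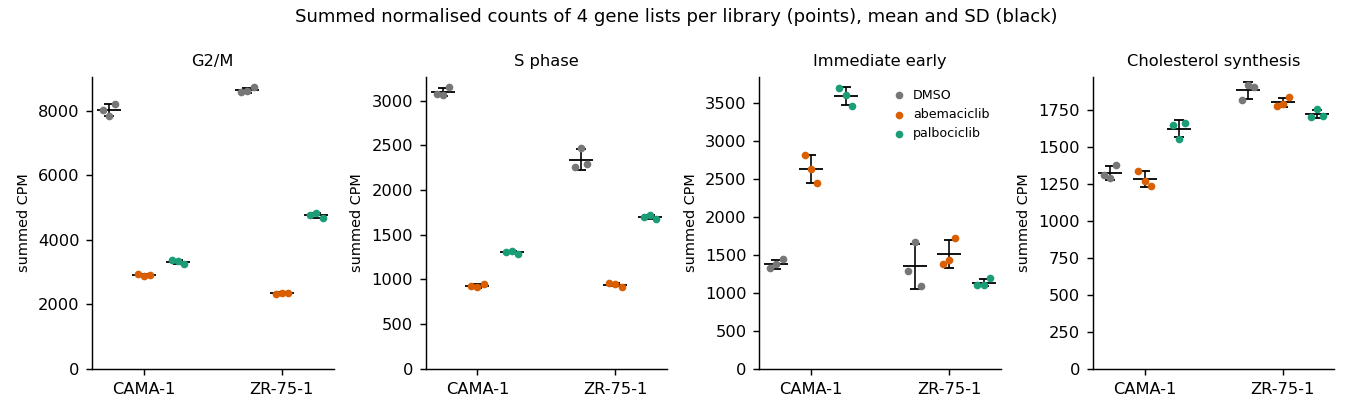
Summed CPM of the tested genes on the G2/M, S-phase, immediate early and cholesterol synthesis lists in each library, with points coloured by treatment and black bars for the mean and SD of 3 libraries. In the G2/M panel abemaciclib and palbociclib are near each other in CAMA-1 (2903 and 3321 CPM) and far apart in ZR-75-1 (2357 and 4761 CPM), and in the immediate early panel the inhibitors change order between the lines.

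The drugs' own pathway was measured as well. Of 11 tested genes for D-type cyclins, CDK4, CDK6, INK4 inhibitors and pocket proteins, CDKN2A alone passed, or 9.09% beside 2.80% of all genes. Its interaction was −1.44 ± 0.31 (adjusted p = 0.0023). CCND1, the gene for cyclin D1, was between 1402 and 1627 CPM in all 12 drug libraries, and its interaction was 0.13 (95% interval −0.04 to 0.29, adjusted p = 0.55). CDK4 had an interaction of 0.13 (−0.12 to 0.39, adjusted p = 0.72). RB1 had 33.2, 27.8 and 34.7 CPM with abemaciclib against 35.1, 46.5 and 48.6 CPM with palbociclib in ZR-75-1 and overlapped in CAMA-1, with an interaction of −0.49 (−0.89 to −0.09) that did not pass (adjusted p = 0.23).

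CDKN1A, which encodes the CDK inhibitor p21 and is a p53 target, behaved unlike a proliferation gene in 1 line. In ZR-75-1 it measured 22.9, 28.1 and 27.6 CPM with abemaciclib and 78.0, 65.4 and 68.9 CPM with palbociclib, below the DMSO mean of 145 CPM. In CAMA-1 it measured 43.4, 33.9 and 43.7 CPM against 28.4, 37.0 and 30.6 CPM, above a DMSO mean of 9.77 CPM. The inhibitors were apart in ZR-75-1 and overlapped in CAMA-1, and the interaction was −1.79 ± 0.20 (adjusted p = 6.6e-10). On the p53 target list 3 of 28 genes lay below 0 (CDKN1A, SESN2 and RPS27L), beside 1.77% of all genes. None lay above 0, and the median was −0.40.

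Tubulin genes, the building blocks of microtubules, were below 0 in 5 of 11 cases, beside 1.77% of all genes. No tubulin gene was above 0. The median of the list was −0.47, with medians of −0.36 in ZR-75-1 and 0.10 in CAMA-1. The main α-tubulin gene TUBA1B read 907, 968 and 959 CPM with abemaciclib against 1589, 1760 and 1758 CPM with palbociclib in ZR-75-1. In CAMA-1 the drugs overlapped, at 1002, 987 and 925 CPM against 1005, 983 and 1122 CPM, and the interaction was −0.76 ± 0.09 (adjusted p = 3.7e-09). Tubulin genes are near-identical in parts of their sequence, and how reads with several alignments were counted was not stated.

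Immediate early genes, which respond within minutes to growth factor and stress signals, formed the largest group above 0. Of 25 tested genes on a list of immediate early and MAPK feedback genes, 11 lay above 0 (among them FOS, EGR1, DUSP1, ZFP36 and JUN) and none below, beside 1.03% of all genes above 0. The median was 0.87. Within ZR-75-1, 11 members were higher with abemaciclib and 5 lower, beside 4.62% and 7.14% of all genes. Within CAMA-1 none was higher and 6 were lower, beside 0.717% and 1.46% of all genes. Leaving out 1 library gave 9 to 11. The summed level was 1514 ± 183 CPM with abemaciclib and 1138 ± 49.0 with palbociclib in ZR-75-1, and 2637 ± 188 and 3595 ± 118 in CAMA-1. With DMSO it was 1350 ± 299 CPM in ZR-75-1, the least even of the 6 groups, and 1383 ± 59.2 in CAMA-1.

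FOS, a subunit of the AP-1 factor (chr14:75278826-75282230), was at 33.5, 41.3 and 46.6 CPM with abemaciclib against 2.81, 7.12 and 7.95 CPM with palbociclib in ZR-75-1. In CAMA-1 the order was the reverse, at 20.4, 21.5 and 12.8 CPM against 40.4, 31.9 and 34.0 CPM. Neither pair overlapped, and the interaction was 3.74 ± 0.40 (adjusted p = 9.4e-11). The DMSO libraries of ZR-75-1 were spread over 19.6, 25.5 and 3.80 CPM, so they give no firm reference for this gene.

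EGR1, a zinc finger factor whose promoter is printed above, was at 204, 292 and 296 CPM with abemaciclib against 68.2, 89.5 and 70.1 CPM with palbociclib in ZR-75-1. In CAMA-1 it was at 238, 204 and 131 CPM against 330, 357 and 276 CPM. The groups were again apart in each line and in opposite order, with an interaction of 2.55 ± 0.26 (adjusted p = 2.3e-11). JUN, the partner of FOS, separated the drugs in ZR-75-1 (123, 130 and 194 CPM against 46.0, 52.9 and 55.7 CPM) and overlapped in CAMA-1 (118, 132 and 97.5 CPM against 129, 127 and 132 CPM), with an interaction of 1.69 ± 0.19 (adjusted p = 9.3e-10). ZFP36, which destabilises such short-lived messages, was higher with abemaciclib in ZR-75-1, at 24.6, 25.7 and 31.2 CPM against 2.52, 4.07 and 8.25 CPM, and its difference in CAMA-1 was 0.57 (adjusted p = 0.34). Its interaction was 1.87 ± 0.39 (adjusted p = 0.0013).

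Lipid synthesis genes were also called above 0 and not below. SCD, the desaturase that makes oleate (chr10:100347233-100364826), rose with abemaciclib relative to palbociclib in ZR-75-1, with 2732, 2730 and 2868 CPM against 1465, 1614 and 1665 CPM. In CAMA-1 it was lower, with 233, 223 and 230 CPM against 334, 267 and 347 CPM. Both pairs were apart, and the interaction was 1.28 ± 0.10 (adjusted p = 2.0e-15). FASN, fatty acid synthase, went the same way: 1851, 1888 and 1683 CPM against 1356, 1427 and 1317 CPM in ZR-75-1, and 430, 435 and 415 CPM against 587, 591 and 623 CPM in CAMA-1 (interaction 0.90 ± 0.09, adjusted p = 3.7e-11). SCD and FASN were the only called genes of 13 on the fatty acid list, beside 2.80% of all genes, and the median of the list was 0.22.

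On the cholesterol synthesis list, 5 of 23 genes lay above 0 (among them LSS, MSMO1 and INSIG1), beside 1.03% of all genes. None lay below 0, and the median was 0.44. Within ZR-75-1, 3 members were higher and 4 lower with abemaciclib, beside 4.62% and 7.14% of all genes. Within CAMA-1 none was higher and 7 were lower, beside 0.717% and 1.46% of all genes. MSMO1, a sterol demethylation enzyme, had a difference of −0.50 in CAMA-1 (adjusted p = 0.0076) and of 0.33 in ZR-75-1 (adjusted p = 0.052), and an interaction of 0.83 ± 0.17 (adjusted p = 0.00067).

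**Figure D4:**
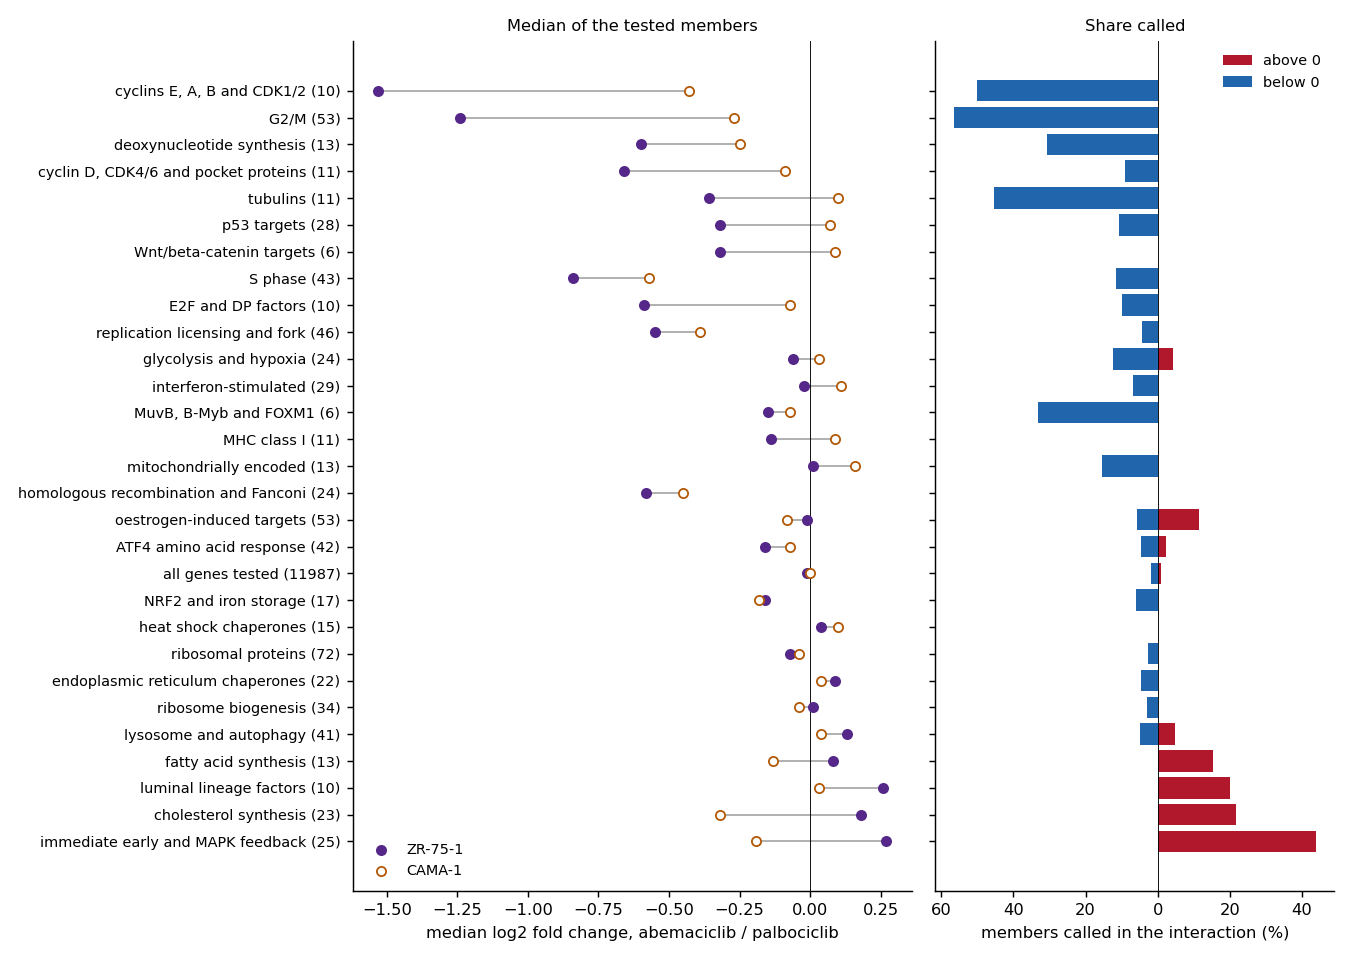
Left, median log2 fold change between abemaciclib and palbociclib for the tested members of the gene lists with at least 5 tested genes, cell type markers left out, in ZR-75-1 (filled) and CAMA-1 (open), with the number tested in brackets; right, the share of members called above 0 (red) and below 0 (blue, to the left) in the interaction. The cyclin and G2/M lists have the widest gaps between lines among those drawn, the S-phase and repair lists lie below 0 in both, and the immediate early, cholesterol, fatty acid and luminal factor lists are called above 0 alone.

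A small set of genes was called in both lines with opposite signs. The plot of their differences shows 9 genes that were higher with abemaciclib in ZR-75-1 and lower in CAMA-1, and 5 with the reverse order. Besides FOS, EGR1, SCD and FASN, the former included HES1, a Notch-responsive repressor, with 240, 281 and 256 CPM against 177, 168 and 171 CPM in ZR-75-1 and 370, 356 and 367 CPM against 554, 607 and 488 CPM in CAMA-1 (interaction 1.18 ± 0.11, adjusted p = 4.3e-12). DSCAM-AS1, a long non-coding RNA of luminal breast cancer, had 93.2, 106 and 106 CPM against 73.8, 76.6 and 69.5 CPM in ZR-75-1, and 121, 90.5 and 117 CPM against 179, 182 and 176 CPM in CAMA-1 (interaction 1.16 ± 0.16, adjusted p = 1.7e-07).

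DHRS2, a mitochondrial dehydrogenase/reductase (chr14:23630115-23645639), led the genes with the reverse order. It measured 11.6, 7.29 and 3.95 CPM with abemaciclib against 21.6, 35.9 and 34.2 CPM with palbociclib in ZR-75-1, and 45.8, 31.3 and 36.5 CPM against 16.1, 18.5 and 16.7 CPM in CAMA-1. The interaction was −3.12 ± 0.32 (adjusted p = 5.7e-11). CYP4B1, a cytochrome P450, had 40.1, 40.6 and 46.2 CPM against 106, 117 and 96.9 CPM in ZR-75-1 and 13.5, 14.2 and 13.7 CPM against 9.14, 5.41 and 6.12 CPM in CAMA-1 (interaction −2.30 ± 0.27, adjusted p = 2.1e-09). All 4 of its drug groups were above DMSO, whose means were 4.55 CPM in ZR-75-1 and 1.35 CPM in CAMA-1. SESN2, a stress-induced regulator of mTORC1, had an interaction of −1.03 ± 0.18 (adjusted p = 7.6e-05), with differences of −0.52 in ZR-75-1 and 0.50 in CAMA-1.

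**Figure D5:**
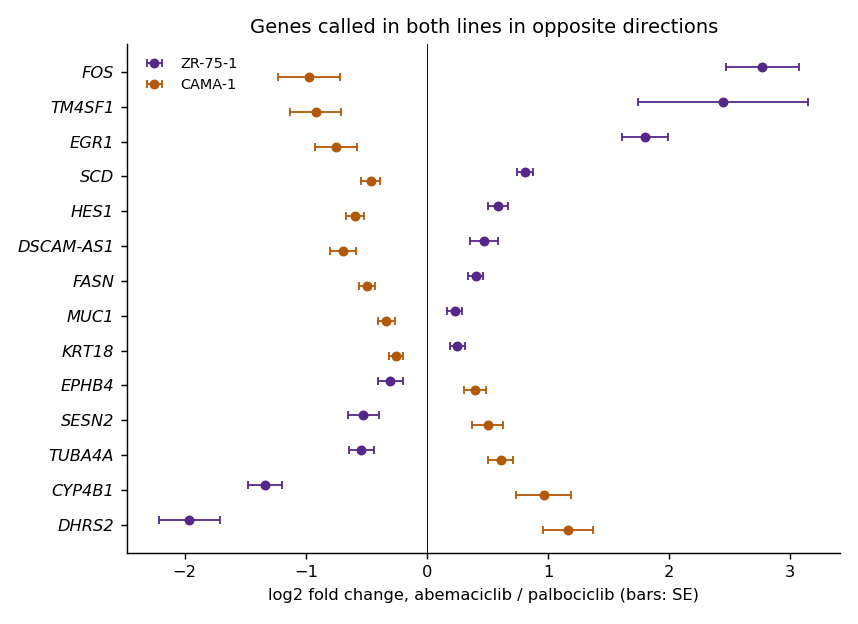
Log2 fold change between abemaciclib and palbociclib, with its SE, in ZR-75-1 and CAMA-1 for the 14 genes called in both lines with opposite signs. In the upper 9 genes, from FOS to KRT18, the ZR-75-1 value is above 0 and the CAMA-1 value below, and in EPHB4, SESN2, TUBA4A, CYP4B1 and DHRS2 the order is the reverse.

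In a further set the inhibitors differed in CAMA-1 and were not called in ZR-75-1. IFI6, an interferon-stimulated mitochondrial protein, was the clearest case: 68.6, 73.0 and 71.8 CPM with abemaciclib against 31.3, 27.3 and 26.2 CPM with palbociclib in CAMA-1, and 27.5, 25.7 and 24.1 CPM against 33.1, 30.2 and 36.8 CPM in ZR-75-1. Its interaction was −1.69 ± 0.22 (adjusted p = 4.3e-08). On the interferon-stimulated list 2 of 29 genes lay below 0 (IFI6 and OAS3), beside 1.77% of all genes. None lay above 0, and the median was −0.22, beside −0.01 for all genes. Unlike IFI6, OAS3 differed between inhibitors in ZR-75-1 (−1.16, adjusted p = 0.00037) and was not called in CAMA-1 (0.07, adjusted p = 0.97). Its interaction call was lost in 11 of the 30 alternative analyses. BCAS1, a gene amplified in breast cancer, had 145, 168 and 176 CPM against 259, 282 and 266 CPM in CAMA-1, and 133, 152 and 135 CPM against 111, 120 and 121 CPM in ZR-75-1 (interaction 0.99 ± 0.12, adjusted p = 1.9e-08). S100A6, a calcium-binding protein, had 1928, 1827 and 1740 CPM against 2686, 2644 and 2698 CPM in CAMA-1 and a difference of −0.11 in ZR-75-1 (adjusted p = 0.26), with an interaction of 0.44 ± 0.08 (adjusted p = 0.00038).

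Oestrogen receptor targets were called in both directions. Of 53 tested genes on the list of oestrogen-induced targets, 6 lay above 0 and 3 below, which is 17.0% of the list beside 2.80% of all genes, and the median was −0.03, beside −0.01 for all genes. ESR1 itself had an interaction of 0.25 (95% interval −0.03 to 0.52, adjusted p = 0.44). TFF1, the secreted trefoil factor and a classical target, was higher with abemaciclib in both lines, by 0.22 in ZR-75-1 and 0.27 in CAMA-1, and its interaction was −0.05 (−0.21 to 0.12, adjusted p = 0.89). GREB1, another classical target, had an interaction of −0.22 (−0.50 to 0.06, adjusted p = 0.54). The lysosomal protease CTSD was below 0 (−0.48 ± 0.10, adjusted p = 0.00059), as it was lower with abemaciclib in ZR-75-1 and overlapped in CAMA-1.

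The luminal keratins KRT8, KRT18 and KRT19 are 3 of the 6 genes above 0 on that list, and they are also luminal markers. Of these markers, 4 of 7 lay above 0 and none below, beside 1.03% and 1.77% of all genes. KRT8 read 432, 473 and 451 CPM with abemaciclib against 320, 315 and 328 CPM with palbociclib in ZR-75-1, and 620, 621 and 653 CPM against 699, 705 and 720 CPM in CAMA-1 (interaction 0.66 ± 0.10, adjusted p = 7.5e-06). Its partner KRT18 read 653, 668 and 639 CPM against 547, 550 and 548 CPM in ZR-75-1, and 958, 888 and 853 CPM against 1059, 1066 and 1097 CPM in CAMA-1 (interaction 0.51 ± 0.09, adjusted p = 4.9e-05). KRT8 and KRT18 overlap on opposite strands in the annotation. On the list of luminal lineage factors 2 of 10 genes lay above 0, beside 1.03% of all genes. No member lay below 0, and the median was 0.26.

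The largest fitted values among the remaining genes come with low counts. LGALS1, which encodes galectin-1, was well measured: 38.8, 45.2 and 42.2 CPM against 187, 174 and 151 CPM in ZR-75-1 and 1230, 1148 and 1130 CPM against 1390, 1417 and 1382 CPM in CAMA-1 (interaction −1.77 ± 0.11, adjusted p = 2.2e-19). NEURL1B, a ubiquitin ligase of Notch ligands, was at 3.32, 5.21 and 3.16 CPM against 42.4, 43.4 and 47.1 CPM in ZR-75-1, with overlapping groups in CAMA-1 (interaction −3.18 ± 0.25, adjusted p = 2.0e-15). In IQGAP3, a scaffold protein of dividing cells, all 3 abemaciclib libraries of ZR-75-1 held at most 3 counts, and palbociclib was at least 9.46-fold higher against that floor. In SKIDA1 the corresponding bound was 2.69-fold. For IQGAP3 and SKIDA1 a fitted fold change depends on the prior count of the model and is not given.

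Stress and housekeeping lists differed in their share of called genes, beside 2.80% of all genes. The ATF4 amino acid response list had 1 gene above 0 and 2 below of 42, endoplasmic reticulum chaperones had 1 below of 22, and ribosomal protein genes had 2 below of 72, or 2.78%. Heat shock chaperones had none of 15 and class I antigen presentation none of 11, by the quasi-likelihood test. Lysosome and autophagy genes had 2 above and 2 below of 41, or 9.76%, and leaving out 1 library gave 1 to 3 above and 1 to 2 below. Among those called, GPNMB held 0, 0 and 1 counts with abemaciclib in ZR-75-1. GABARAPL1 held 0, 2 and 0 counts with abemaciclib in CAMA-1. Their calls were lost in 22 and 10 of the 30 alternative analyses. Glycolysis and hypoxia genes had 1 above and 3 below of 24, or 16.7%, and leaving out 1 library gave 0 to 1 above and 0 to 4 below. Of the 336 called genes, 45 were on a cell cycle list, 95 on any list and 241 on none.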

How the data were processed

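RNA was measured by 3′-end sequencing (Lexogen QuantSeq) in 18 libraries. The deposited file holds raw read counts per gene. Per the labels and methods, the authors trimmed reads with BBDuk, aligned them with STAR 2.7.5b to hg38 and counted them with featureCounts 2.0.1. Strand-aware counting, multi-mapping reads and molecular identifiers were not stated, and the kit's strand differs between labels and methods, so genes overlapping on opposite strands are less certain. All 18 columns matched a sample title.

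Counts of all 6 groups were fitted together in edgeR 4.0.16 (R 4.3.3): filterByExpr, TMM scaling, a quasi-likelihood F test of each contrast, and Benjamini-Hochberg adjustment over 11987 genes. The filter kept 99.6% of counts and the biological coefficient of variation was 8.26%. CPM are relative to the TMM-scaled total. Intervals are 95% intervals of the fit and include the spread between libraries. Floors from counts cover counting error only. On simulated data, the fit of this interaction was tried with 200 changed genes among 11987. It recovered 60.0% of those with a 2-fold and 89.0% of those with a 4-fold interaction. Of its 158 calls, 9 were false. Genes near the count floor carried no such change, so recovery there was not tested. DESeq2 1.42.0 and limma 3.58.1 were alternatives.

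The 101 named genes include a fixed set of cell cycle and oestrogen receptor genes and the leading called members of each list. They also include called genes with opposite signs or a larger difference in CAMA-1. The largest and most significant called genes were added if they averaged 10 counts or more and their inhibitor libraries were apart in 1 line or both. For these added genes, a lack of overlap is therefore partly a result of the choice. Of all 336 called genes, 332 had inhibitor libraries that were apart in at least 1 line. Named genes outside the 101 are other called members of a list, EPHB4 and markers of other cell types without a count. Members and lists were chosen with earlier results of these data known. Gene coordinates are from GENCODE on GRCh38. Values of some list members are not reported here. Each p-value measures only the spread between these libraries.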

Additional observations from a re-analysis of the deposited data

Results flagged for a closer look

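The interaction is itself a test of whether the inhibitor difference differs between the lines, and 336 genes passed it. The 14 genes whose inhibitor difference was called in both lines with opposite signs are singled out here. Above 0 were FOS (3.74), TM4SF1 (3.36), EGR1 (2.55), SCD (1.28), HES1 (1.18), DSCAM-AS1 (1.16), FASN (0.90), MUC1 (0.57) and KRT18 (0.51), as log2 values of the interaction. Below 0 were DHRS2 (−3.12), CYP4B1 (−2.30), TUBA4A (−1.15), SESN2 (−1.03) and EPHB4 (−0.70). In TM4SF1 the palbociclib libraries of ZR-75-1 held 1, 2 and 1 counts, so its fitted value depends on the prior count, and abemaciclib was at least 2.63-fold higher there against the floor. Groups of 3 libraries are too small for the test of single outlying samples.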

How the results depend on the processing

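Across the 30 alternatives, no named gene changed the direction of its interaction where it was called in the main fit or in that alternative. Changes of sign were not followed for genes called in neither. Of the 101 named genes, 63 kept their side of the threshold wherever they were tested. The interaction called 332 genes with RLE scaling, 353 with upper-quartile scaling, 330 with DESeq2, which left out more genes of low counts (8501 tested), and 300 with voom and group weights; of these, 324, 317, 299 and 275 were among the 336. Thinning all libraries to 2308442 counts gave 273. A test against a 1.2-fold minimum gave 140 genes (42 higher and 98 lower) in the interaction, 545 (147 and 398) in ZR-75-1 and 64 (14 and 50) in CAMA-1. Leaving out 1 library gave 259 to 394 genes in the interaction, with 95 to 182 higher and 149 to 212 lower. It gave 1042 to 1499 in ZR-75-1, with 385 to 686 higher and 570 to 861 lower, and 147 to 297 in CAMA-1, with 47 to 109 higher and 99 to 188 lower. In CAMA-1 the count was 147 (48 higher and 99 lower) without abemaciclib replicate 3, 169 (47 higher) without palbociclib replicate 1 and 173 (52 higher) without palbociclib replicate 2, and 51 were higher without abemaciclib replicate 1. The number lower in ZR-75-1 was 570 without its abemaciclib replicate 1. The cause was not tested. Same-numbered replicates did not deviate together (correlations of −0.0597 to 0.0526 in 45 comparisons of 2 libraries), so the numbers pair nothing. With a replicate block within each line the counts were 323 in the interaction, 1340 in ZR-75-1 and 240 in CAMA-1, and with a replicate block shared by the lines 315, 1347 and 241. The depth limits genes near 1 CPM, where 3 counts are the floor.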

Other observations

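Mitochondrially encoded transcripts differed among themselves. MT-ND6, a complex I subunit and the messenger RNA encoded on the light strand, had 68.7, 54.9 and 58.8 CPM with abemaciclib against 136, 129 and 159 CPM with palbociclib in ZR-75-1, and 173, 144 and 166 CPM against 194, 205 and 164 CPM in CAMA-1. Its interaction was −1.01 ± 0.15 (adjusted p = 1.4e-06), and MT-CYB, at −0.56 ± 0.12 (adjusted p = 0.0013), was the only other called gene of the 13. The median of the 13 was −0.13. Beside this, the share of all mitochondrial counts was 19.6% and 19.0% with the 2 inhibitors in ZR-75-1.

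SLC7A11, the cystine transporter, was called in the interaction (−2.70 ± 0.66, adjusted p = 0.0084) and in neither line alone. It measured 1.33, 3.13 and 0.789 CPM with abemaciclib against 4.49, 3.39 and 4.12 CPM in ZR-75-1, and 3.71, 4.29 and 3.75 CPM against 1.68, 1.14 and 1.02 CPM in CAMA-1. Neither pair overlapped, at levels of a few counts. STC2, a secreted glycoprotein, was above 0 (1.10 ± 0.21, adjusted p = 0.00044), with 46.8, 35.1 and 32.4 CPM against 20.8, 20.3 and 20.0 CPM in ZR-75-1 and overlapping groups in CAMA-1. NPC2, which carries cholesterol out of lysosomes, read 206, 218 and 187 CPM against 129, 131 and 122 CPM in ZR-75-1 and differed by −0.01 in CAMA-1, with an interaction of 0.68 ± 0.15 (adjusted p = 0.0018).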
